A study of Mus musculus with 2 samples.

Results

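The cells described here were tuft-like medullary thymic epithelial cells (mTECs), chosen by their own transcripts. A cell was a member when Avil and Trpm5 together gave at least 5 UMIs, and Psmb11 and Prss16 together fewer than 15 UMIs, per 10000 UMIs of that cell. A unique molecular identifier (UMI) stands for a single captured RNA molecule. Avil encodes the actin-binding protein advillin and Trpm5 a cation channel of taste transduction, whereas Psmb11 and Prss16 encode proteases of cortical TECs. The rule found 320 members among 8303 kept cells, 160 of 3233 in the control library and 160 of 5070 in the irradiated library. Levels of these 4 genes chose the members and are given below only as a description.

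The study asked how mTECs differ after an acute dose of radiation. C57BL/6 female mice received 5.5 Gy at 7 weeks of age, and their TECs were profiled by droplet scRNA-seq 15 days later beside TECs from unirradiated mice. EpCAM+ CD45- TER119- cells were sorted from enzyme-digested thymi, and each condition was 1 library made from 3 pooled mice. With a single library per condition there were no replicates, so no difference between conditions could be tested, the spread between mice was not visible, and every interval given below covers counting error only. The labels of the deposit give an age of 9 weeks in the sample characteristics but 4 weeks in the protocol text.

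The labels also name the conditions the other way round. The library labelled as irradiated held 4937 barcodes, of which 3233 passed the filter used here, and the library labelled as control held 7167, of which 5070 passed. The numbers of cells stated for the study match the opposite naming, so the libraries were named by cell number, and every direction below would reverse under the labels. So named, the control library held 58185309 UMIs and the irradiated library 82201657, and their members held 2424485 and 1996003. Both libraries shared 17 barcodes, none of which belonged to a member in either.

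Tuft cells are rare chemosensory epithelial cells of the gut, airways and thymic medulla. They are specified by the POU factor Pou2f3 and carry the signalling chain of taste cells, in which a receptor acts through the G protein gustducin and phospholipase C to release calcium and open Trpm5. They are known as a source of interleukin-25, cysteinyl leukotrienes, prostaglandins and acetylcholine. In the thymus they are counted among the mimetic mTECs, which take on gene programmes of peripheral cell types.

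The octamer ATGCAAAT is the classical binding sequence of POU factors, so the promoters of tuft genes that hold it on either strand are shown first. Of the 25 genes with the highest fold of members over other kept cells, 20 were in the RefSeq promoter table (GRCm38.p6, 250 bases before to 50 bases after each gene start), and 1 of them held the octamer. Among 12 listed tuft regulators 1 of 8 genes with a promoter held it, among 16 taste genes 2 of 13, and among 12 lipid mediator genes 1 of 10. Across the table, 532 of 27025 genes held it, or 1.97%. The gene with the octamer was the same, 1810046K07Rik, among the 25 genes and among the regulators. Counts of 1 or 2 genes are too few to be read as an excess. Capitals mark the octamer as read on the gene's strand, as ATGCAAAT or as its reverse complement ATTTGCAT. The first sequence is from 1810046K07Rik, which encodes a coactivator of Pou2f3 (chr9:51328869-51329168, minus strand), with octamers starting 86 and 55 bases before the gene start. The second is from Rgs21, a regulator of G protein signalling in taste cells (chr1:144567618-144567917, minus strand), with 1 octamer starting 200 bases before the gene start. The third is from Itpr3, a calcium release channel gene (chr17:27057054-27057353, plus strand), with 1 octamer starting 27 bases before the gene start. The last is from Hpgds, the haematopoietic prostaglandin D synthase (chr6:65144681-65144980, minus strand), with 1 octamer starting 174 bases before the gene start. A match is a description of the letters and not evidence of binding.
1810046K07Rik: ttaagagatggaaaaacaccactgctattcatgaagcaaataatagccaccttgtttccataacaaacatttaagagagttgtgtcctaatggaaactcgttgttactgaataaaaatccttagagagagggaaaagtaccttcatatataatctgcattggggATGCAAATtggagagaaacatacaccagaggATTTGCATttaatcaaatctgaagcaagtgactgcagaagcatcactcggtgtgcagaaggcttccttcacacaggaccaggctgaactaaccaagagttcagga
Rgs21: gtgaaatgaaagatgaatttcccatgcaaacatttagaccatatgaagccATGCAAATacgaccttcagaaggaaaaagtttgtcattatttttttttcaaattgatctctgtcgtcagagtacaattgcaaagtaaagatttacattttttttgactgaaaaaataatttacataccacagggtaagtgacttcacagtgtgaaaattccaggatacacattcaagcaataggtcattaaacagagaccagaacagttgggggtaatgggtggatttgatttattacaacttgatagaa
Itpr3: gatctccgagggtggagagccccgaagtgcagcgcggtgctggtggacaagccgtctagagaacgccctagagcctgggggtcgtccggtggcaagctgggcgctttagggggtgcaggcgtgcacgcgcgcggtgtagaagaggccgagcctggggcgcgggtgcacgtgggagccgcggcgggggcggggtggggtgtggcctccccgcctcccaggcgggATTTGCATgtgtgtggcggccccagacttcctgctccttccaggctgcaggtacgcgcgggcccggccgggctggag
Hpgds: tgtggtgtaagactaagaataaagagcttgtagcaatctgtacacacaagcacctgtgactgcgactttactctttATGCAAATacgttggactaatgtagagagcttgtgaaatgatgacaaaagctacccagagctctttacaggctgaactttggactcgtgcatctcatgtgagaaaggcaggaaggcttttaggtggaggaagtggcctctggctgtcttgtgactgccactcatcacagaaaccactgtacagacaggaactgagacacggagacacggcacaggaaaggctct

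Most members lay far above the gate. The summed level of Avil and Trpm5 had a median of 25.9 per 10000 in control members and 28.2 in irradiated members, with highest values of 67.5 and 56.2. Among kept cells under the cortical limit, the lowest control member had 5.33 and the highest control cell below the gate had 4.65, and in the irradiated library these values were 5.08 and 4.50. The cortical limit left out 1 further cell in each library, at 11.8 and 21.6. Both genes had a UMI in 156 control and 149 irradiated members, and 2969 control and 4775 irradiated kept cells had neither. Avil (ENSMUSG00000025432) lies at 127000709 to 127020994 on chromosome 10, and Trpm5 (ENSMUSG00000009246) at 143069153 to 143094642 on chromosome 7 (GRCm38).

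The label was checked with 4 tuft genes that the rule did not use. Pou2f3, Lrmp, which encodes a partner of inositol trisphosphate receptors, Rgs13, a regulator of G protein signalling, and Alox5, the 5-lipoxygenase, were all found in 138 control and 121 irradiated members. By comparison, 3 control and 4 irradiated cells outside the gate had all 4 genes. The label was therefore borne out for most members but not for all, since 2 control and 8 irradiated members had none of the 4. These 10 members had 6.80 Avil UMIs but 0.11 Trpm5 UMIs per 10000, with 10.5 for Aire, the transcriptional regulator of ectopic antigens, and 260 for Cd74, the MHC class II invariant chain. They had no UMI of Gnat3, Plcb2 or Gng13. Their median depth was 16019.5 UMIs, against 12030.5 in the other 310 members.

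**Figure D1:**
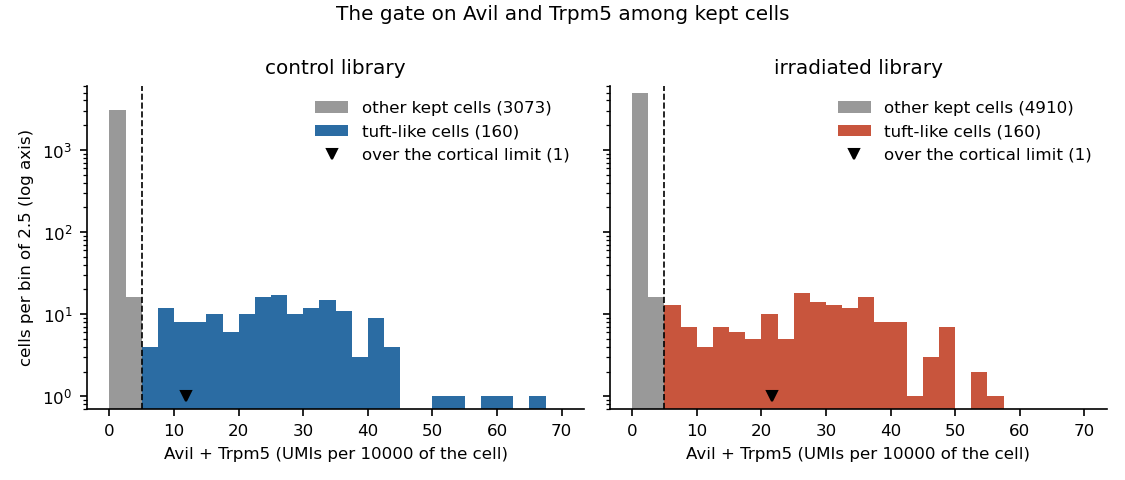
Summed Avil and Trpm5 level of kept cells, in UMIs per 10000 UMIs of the cell, by library, on a log axis of cells per bin, with the gate at 5 as a dashed line. Members reach 67.5 in the control and 56.2 in the irradiated library, and triangles mark the cells left out by the cortical limit, at 11.8 and 21.6.

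Members and other cells were sequenced to similar depth in the control library and less so in the irradiated library. The median was 13616.5 UMIs in control members and 13394 in the other kept control cells, and 10669 in irradiated members against 13129 in the other kept irradiated cells. Members had a median of 4181.5 detected genes in the control and 3622.5 in the irradiated library. Mitochondrial UMIs took a median of 7.26% and 7.36% in members, above the 5.89% and 5.93% of the other kept cells.

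Transcription factors of tuft cells were found in members of both libraries at clearly higher levels than elsewhere. Of 12 listed regulators, 11 were more than 2-fold above the other kept cells in both libraries and none was below, against 15.1% of all 6487 genes with at least 100 UMIs in members that were above and 4.96% that were below. The same shares over all genes stand beside the counts of the lists below. Pou2f3 was at 2.38 UMIs per 10000 in control members and 1.92 in irradiated members, and at 0.08 and 0.07 in the other cells. Its coactivator gene 1810046K07Rik was at 3.52 and 3.44, and the related coactivator gene Colca2 at 1.53 and 1.72. The homeobox genes Hmx2 and Hmx3 were at 0.98 and 1.83 in control and 1.41 and 1.89 in irradiated members. Gfi1b, a zinc finger repressor, was found in 47.5% of control and 45.6% of irradiated members, and Ascl2, a basic helix-loop-helix factor, in 46.9% of each. Sox9, a factor of epithelial progenitors and many secretory lineages, was at 7.28 and 5.99 in members but also at 1.20 and 1.03 in the other cells. Hivep3, the listed regulator that did not pass 2-fold over the other cells, was at 1.22 and 1.40 against 0.66 and 0.69.

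Several genes of the taste signalling chain were found at high levels in members beside Trpm5, which chose them. Of 16 listed genes, 10 reached 100 UMIs in members, and 9 of these, Trpm5 included, were above the other cells by over 2-fold in both libraries. Gnat3, which encodes the alpha subunit of gustducin (ENSMUSG00000028777, chromosome 5, 17962549 to 18019834), was at 7.87 UMIs per 10000 in control members and 6.35 in irradiated members. Among genes that were found in at least 25% of members, it had the highest fold over other cells. Its log2 fold was 10.26 in the control and 10.17 in the irradiated library. A Gnat3 UMI was found in 58.1% of control and 50.6% of irradiated members, and in 0.553% and 0.285% of other kept cells. Its partner subunits Gnb3 and Gng13 were at 11.3 and 7.37 in control and 12.3 and 8.77 in irradiated members. Plcb2, the phospholipase C that follows gustducin, was at 4.29 and 3.42, and Itpr3 was at 0.43 and 0.37. Calhm1, which encodes a subunit of the channel that releases ATP from taste cells, gave 1 UMI in control and none in irradiated members, and the sweet receptor subunit Tas1r2 gave none in either. The other receptor subunits Tas1r1 and Tas1r3 were found in 16.2% and 24.4% of control members and in 8.12% and 16.9% of irradiated members.

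Bitter taste receptor genes (Tas2r) were found in many members. Of 35 listed family members, 30 had a UMI in a member. At least 1 Tas2r UMI was found in 94 control members (58.8%, 95% Clopper-Pearson interval 50.7 to 66.5%) and in 90 irradiated members (56.2%, 48.2 to 64.1%), against 0.586% and 0.346% of the other kept cells. Receptors were often found together, since 66 control and 59 irradiated members held 2 or more of these genes, and 1 control member held 18. Tas2r105 gave 151 UMIs in control and 74 in irradiated members, Tas2r109 gave 78 and 54, and Tas2r117 gave 73 and 45. Tas2r105 was found in 25.6% of control and 16.2% of irradiated members. Tas2r UMIs were found in 75.3% of control members with a Gnat3 UMI and in 35.8% of those without, and in 80.2% and 31.6% of irradiated members. After each cell was thinned at random to 4000 UMIs, 43.8% of control and 39.4% of irradiated members had a Tas2r UMI. Split by Gnat3 in the same way, the thinned shares were 59.1% and 22.4% in the control and 61.7% and 16.5% in the irradiated library. Tas2r genes are close relatives of each other, so the counts of single genes are uncertain.

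Enzymes of leukotriene and prostaglandin synthesis formed a further group with high levels in members. Of 12 listed lipid mediator genes, 10 reached 100 UMIs, 6 were more than 2-fold above the other kept cells in both libraries, and 1 was below. Alox5ap, the activating protein of 5-lipoxygenase, was at 13.6 and 17.1 UMIs per 10000 in control and irradiated members, and Alox5 itself at 5.13 and 5.47. Ltc4s, the leukotriene C4 synthase, was at 7.84 and 8.50, and was found in 98.8% and 95% of members. Ptgs1, the constitutive cyclooxygenase, was at 4.08 and 4.18, while the inducible Ptgs2 was at 0.35 and 0.48 and thus below the 1.25 and 0.77 of the other cells. Hpgds was at 2.37 and 2.06. Fabp5, a fatty acid binding protein, was the gene of the list more than 2-fold below the other cells in both libraries, at 8.02 and 15.1 against 49.6 and 64.9.

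Of 16 listed signals and receptors, 8 reached 100 UMIs, and 5 of these were above and 1 was below the other cells by over 2-fold in both libraries. Il25, the tuft cell cytokine that acts on lymphoid cells, was at 2.86 and 1.65 UMIs per 10000 and was found in 68.8% of control and 65.0% of irradiated members. The receptor chain Il17rb, through which interleukin-25 signals, was at 1.42 and 1.41. Chat, which makes acetylcholine, was at 2.27 and 2.74, but the vesicular transporter gene Slc18a3 gave 2 and 1 UMIs and the choline transporter gene Slc5a7 gave 2 in each library. Tslp, an epithelial cytokine, gave 29 and 63 UMIs. The succinate receptor gene Sucnr1 gave 38 and 12 UMIs, and the cannabinoid receptor gene Cnr1 gave none.

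Of 24 listed genes of the apical cytoskeleton and tuft cell surface, 22 reached 100 UMIs and 16, Avil included, were above the other cells by over 2-fold in both libraries. Dclk1, a microtubule-associated kinase widely used as a tuft marker, was at 14.03 and 13.7 UMIs per 10000. Espn, an actin bundler, was at 10.6 and 9.74, and the surface protein gene Cd24a at 17.2 and 16.6. Villin (Vil1) was found in 34.4% of members of each library. Kinases and adaptors better known from blood cells were also among the genes with the highest fold, namely Bmx at 5.34 and 5.42, Pik3cg at 3.14 and 3.32 and Vav1 at 2.32 and 2.13. Ptprc, which encodes CD45, was found in 31.9% and 35.0% of members, although the sort took CD45- cells, and was at 0.53 and 0.59 UMIs per 10000.

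Gene lists that separate 2 kinds of tuft cell in the intestine were both found in members. Of the tuft-1 (neuronal) list, 12 of 13 genes reached 100 UMIs, 8 were above the other cells by over 2-fold in both libraries and 1, Tmem158, was below. Of the tuft-2 (immune) list, 11 of 16 did and 8 were above. Summed over the list, tuft-1 genes were at 30.1 and 28.6 UMIs per 10000 and tuft-2 genes at 43.6 and 44.8 in control and irradiated members. Anxa4, an annexin, led the first sum and S100a11, a calcium-binding protein, the second.

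**Figure D2:**
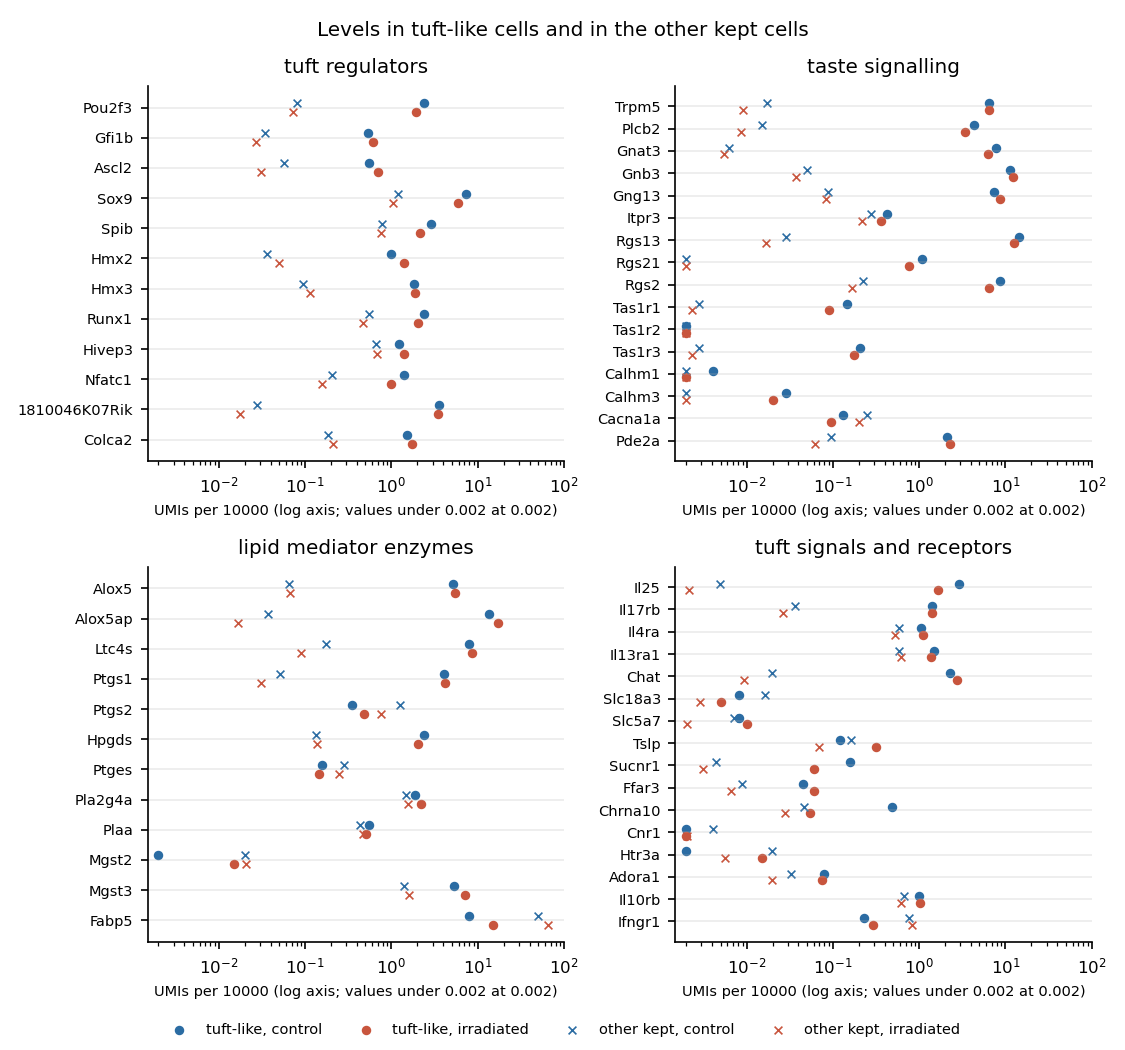
Levels of tuft regulators, taste signalling genes, lipid mediator enzymes and signals and receptors in UMIs per 10000 on a log axis, in members (dots) and other kept cells (crosses) of each library. Points of both libraries lie close together for most genes, and Gnat3 at 7.87 and 6.35 is far above the other cells, whereas Fabp5 and Ptgs2 are below them.

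The members were compared with 3 other groups of mTECs set by gates. These were Aire-high cells (Aire at least 5 UMIs per 10000, 746 control and 1280 irradiated cells), Gp2+ cells (Gp2, a microfold cell receptor, at least 3 UMIs per 10000, 27 and 34 cells) and Ccl21a-high cells (Ccl21a, a chemokine of immature mTECs, at least 50 UMIs per 10000, 1012 and 1669 cells). Members were above Aire-high cells by over 2-fold in both libraries for 22.3% of genes and below for 5.47%. Against Gp2+ cells these shares were 15.7% and 4.32%, and against Ccl21a-high cells 20% and 5.29%. Genes entered by their UMIs in members, which leaves out genes low in members and high in the other group, so the shares above and below are not to be set against each other. Some members also passed these other gates, namely 3 control and 9 irradiated members for Aire, 20 and 15 for Gp2, and 12 and 9 for Ccl21a.

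MHC class II genes were much lower in members than in other kept cells. Of 12 listed genes 10 reached 100 UMIs, 9 of these were below the other cells by over 2-fold in both libraries, and none was above. Of all genes with at least 100 UMIs in members, 4.96% were below and 15.1% above. Cd74 was at 33.9 and 44.5 UMIs per 10000 in control and irradiated members against 170 and 161 in the other cells, and H2-Aa at 14.3 and 18.9 against 66.1 and 65.0. Most genes of dividing cells were near absent. Of 15 listed cell cycle genes, Pcna and Hmgb2 reached 100 UMIs, while Mki67 gave 7 UMIs in control and 3 in irradiated members and Top2a, a mitotic topoisomerase, gave 22 and 14.

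Marker lists of tuft and other cell types were also summed. The tuft list of 6 genes holds Avil and Trpm5, which chose the members, so its sum is a description only. It came to 75.2 UMIs per 10000 in control members and 74.0 in irradiated members, against 0.30 and 0.25 in other kept cells. The Ccl21a+ mTEC list was at 17.8 and 16.7 and the cTEC list at 4.95 and 10.4, with Ctsl, a lysosomal protease, as its most abundant gene. Aire+ mTEC markers summed to 3.39 and 4.44, microfold markers to 8.63 and 7.78, enterocyte markers to 2.34 and 2.46, keratinocyte markers to 1.30 and 1.34 and neuroendocrine markers to 0.93 and 1.00. None of these sums was as high as in the other kept cells, where they were at 15.0 and 13.2, 10.9 and 10.4, 6.72 and 5.11, 2.55 and 1.37, and 3.08 and 2.75. The microfold sum hides single genes, since 3 of its 4 genes with at least 100 UMIs were more than 2-fold above the other cells in both libraries. None of the 4 was below, and of all genes 15.1% were above and 4.96% below. Markers of thymocytes were at 0.31 and 0.25 in members, fibroblasts at 0.63 and 0.45, endothelium at 0.09 and 0.07, erythrocytes at 0.03 and 0.17 and ionocytes at 0.03 and 0.04.

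A few genes from the lists of other cell types were themselves high in members. Dnah5, an axonemal dynein chain of the ciliated list, was at 1.07 and 1.53 UMIs per 10000 in members against 0.06 and 0.05 in the other cells, while Foxj1, the regulator of ciliated cells, was at 0.03 and 0.01. The ciliated list as a whole was at 1.22 and 1.56. Kit, a receptor tyrosine kinase, was at 1.76 and 1.33 and made up nearly all of the mast cell and basophil list (1.88 and 1.37), in which Cpa3, Mcpt8, Ms4a2 and Fcer1a had no UMI. Cd79b, a B cell receptor chain, was at 1.21 and 1.25 within a B cell list of 1.52 and 1.57. Myog, the muscle factor myogenin, was at 0.94 and 0.58 within a muscle list of 1.55 and 1.39, in which Actc1 had no UMI. A few cells carried it, since 20.6% and 15.6% of members had a Myog UMI. The 10% of members with the most held 90.8% and 92.2% of its UMIs. The macrophage and dendritic cell list, by contrast, was not above the other cells, at 1.87 and 3.69 in members against 4.55 and 3.83. Of the member sums Lyz2 gave 1.41 and 3.17, with 57.2% of the irradiated Lyz2 UMIs in 1 member, and Itgax, Xcr1 and Siglech had no UMI.

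Members differed among themselves, and clustering on 2000 variable genes with both libraries together gave 6 clusters, called V0 to V5 by size. The clusters describe these cells and were not tested, and they were not given cell type names. V0 held 89 members (39 control and 50 irradiated), V1 69 (29 and 40), V2 54 (39 and 15), V3 45 (25 and 20), V4 39 (20 and 19) and V5 24 (8 and 16). V2 was the cluster with the most uneven origin, and a cluster mostly from 1 library may reflect that library.

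V0, V1 and V3 shared Pou2f3 at 2.15, 2.81 and 2.68 UMIs per 10000 and differed in other tuft genes, such as Hmx2 at 2.37, 1.77 and 0.77. V0 had the most Wfdc18, a secreted whey acidic protein family member, with 65.6 UMIs per 10000, and was led by Cxcl1 (2.31) and Cxcl2 (5.83), which attract neutrophils, with 1.41 for Gnat3. V1 was led by the factor Etv1 (2.12) and had 11.2 for Tspan6 and 4.12 for Fos, against 21.1 for Fos in V0. V3 had 47.8 for Lrmp and 14.1 for Gnat3, and 88.9% of its cells held a Tas2r UMI.

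V2 was set apart by high levels of some taste signalling genes and low levels of several common tuft markers. Gnat3 was at 17.5 UMIs per 10000 in V2, Gnb3 at 33.5, Rgs21 at 4.67 and Ovol3, a zinc finger factor gene, at 5.69, and the members outside V2 had 0.16 for Rgs21 and 0.33 for Ovol3. Gnat3 did not set V2 apart from V3, which had 14.1, and was found in 68.5% of V2 and 84.4% of V3 cells. Tas2r genes summed to 7.17 per 10000 in V2, which held 47.8% of all Tas2r UMIs of members, against 1.03 in V0 and 4.05 in V3. A Tas2r UMI was nevertheless found in fewer V2 cells (68.5%) than V3 cells (88.9%). Not all taste genes were high there, since Rgs13 was at 6.68 in V2 against 17.5 in V0, 21.6 in V1 and 22.4 in V3. The cytokine gene Il10 was at 3.66 and Myog at 2.84, but a Myog UMI was found in 29.6% of V2 cells and 31.1% of V3 cells. In contrast, Dclk1 was at 2.79, Alox5ap at 3.25, Nrgn, a calmodulin-binding protein gene, at 0.57, Hmx2 at 0.12 and Ptprc at 0.03, where V0 had 21.6, 24.0, 13.6, 2.37 and 1.16. Pou2f3 was at 2.98 in V2 and 2.15 in V0.

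V2 was formed from both libraries together on these genes, so its levels by library are a description only. In V2, Gnat3 was at 13.2 UMIs per 10000 in control cells and 30.5 in irradiated cells, against 6.23 and 3.85 in members outside V2. Ovol3 was at 4.97 and 7.88 in V2 and at 0.26 and 0.40 outside, and Rgs21 at 4.01 and 6.70 in V2 and at 0.17 and 0.15 outside. Alox5ap was at 3.28 and 3.16 in V2, and Dclk1 at 2.93 and 2.36. Chrna10, a nicotinic receptor subunit gene, differed between the libraries within V2, with 105 UMIs in 39 control cells and 4 in 15 irradiated cells.

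V4 held tuft genes beside genes of other mTECs, and V5 held fewer tuft genes. Lrmp was found in 97.4% of V4 cells and 50% of V5 cells, and Pou2f3 in 89.7% and 41.7%. V4 had 52.5 UMIs per 10000 for Ccl21a, 10.1 for Krt5, a basal keratin, and 20.1 for Ctsl, with a median depth of 19726 UMIs. V5 had 7.08 for Aire, which was found in 83.3% of its cells, 203 for Cd74 and 11.4 for S100a8, a calprotectin subunit, with a median depth of 21924 UMIs. Their median summed level of Avil and Trpm5 was 13.7 in V4 and 8.85 in V5, below the 28.6 of V0. Median depth in V0 to V3 was between 9881 and 12636 UMIs. Whether droplets with more than 1 cell contributed to V4 and V5 was not tested.

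**Figure D3:**
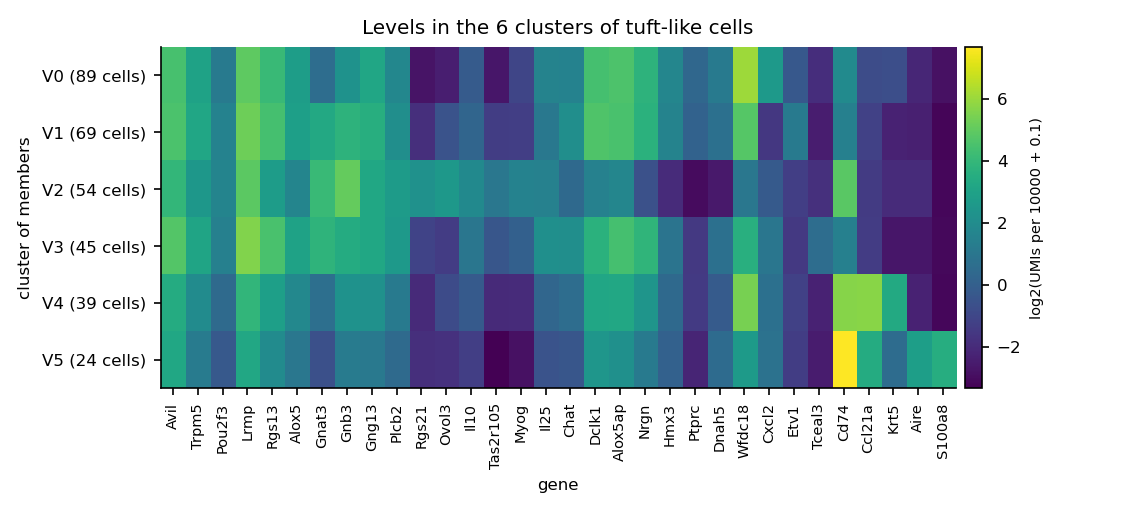
Levels of selected genes (columns) in clusters V0 to V5 of the members (rows), coloured by the log2 of UMIs per 10000 plus 0.1. V2 is highest for Gnb3 at 33.5 and Rgs21 at 4.67 and low for Dclk1 at 2.79, V4 is highest for Ccl21a at 52.5 and V5 for Aire at 7.08.

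Some pairs of genes were found together in members more often than others. After thinning to 4000 UMIs, Gnb3 was found in 78.7% of the 75 control members with a Gnat3 UMI and in 55.3% of the 85 without, and in 73.2% and 48.3% of irradiated members. A630073D07Rik, a gene near the Tas2r cluster of chromosome 6 and second among the genes with the highest fold, was found in 48.0% and 18.8% of these control members and in 49.3% and 28.1% of these irradiated members. Il25 was found in 62.7% and 34.1% of control members but in 42.3% and 34.8% of irradiated members. Alox5ap was found in 86.7% and 77.6% of control members but in 84.5% and 85.4% of irradiated members, and Dclk1 in 85.3% and 77.6% but in 87.3% and 86.5%. Il10 was found in 36.8% of control members with an Il25 UMI and 40.5% of those without, and in 32.8% and 32.3% of irradiated members. Cd74 differed from Gnb3 in direction when split by Gnat3, with 52.0% and 68.2% in the control and 56.3% and 69.7% in the irradiated library.

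Tuft-like members made up a smaller share of kept cells in the irradiated library. The share was 4.95% (4.23 to 5.75%) in the control and 3.16% (2.69 to 3.67%) in the irradiated library. The log2 ratio of irradiated over control shares was -0.65, with a range of -1.10 to -0.20 from opposite ends of both intervals. Without V4 and V5 the shares were 4.08% and 2.47%. Shares of sorted cells depend on how other cells were recovered, and absolute cell numbers were not part of these files.

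Within members, few genes differed by 2-fold between the libraries, among listed tuft genes as among all genes. Summed UMIs of all members of a library were compared per 10000, with 0.5 UMIs added, for genes with at least 100 UMIs over both libraries. Of 6487 genes, 67 were more than 2-fold higher in irradiated members (1.03%) and 56 more than 2-fold lower (0.863%), and the middle 90% of log2 ratios lay between -0.53 and 0.48 with a median of -0.02. None of the 12 regulators, 10 taste genes, 10 lipid mediator genes, 22 apical genes or 11 tuft-2 genes that could be compared was past 2-fold. With so few of all genes past 2-fold, this is not read as a trait of tuft genes. The taste and apical lists include Trpm5 and Avil, whose levels chose the members in both libraries and are no evidence here. In the tuft-1 list, 1 of 12 genes, Tmem158, was past 2-fold higher, with 31.7% of its irradiated UMIs in 1 member, and in the list of signals 1 of 8, Chrna10, was past 2-fold lower. Median log2 ratios of the lists were 0.01 for regulators, -0.21 for taste genes, 0.18 for lipid mediators, 0.01 for signals, -0.01 for apical genes, -0.13 for tuft-1 and 0.06 for tuft-2 genes. The 3 Tas2r genes with enough UMIs had a median of -0.41, with 1 counting range below 0, and the sum over the family had a log2 ratio of -0.18 with a range that spans 0 (-0.43 to 0.06).

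Smaller differences within the programme went in both directions. A counting range of the ratio wholly below 0 was found for 6.34% of all genes and a range wholly above 0 for 6.46%. Ranges narrow as UMIs rise, and some listed genes were far above the minimum of 100, such as Rgs13 with 6059 UMIs. Counts of ranges in the lists are therefore not read against these shares. In the taste list 5 of 10 genes had a range below 0 and 2 a range above 0. Those below were Plcb2 (-0.33), Gnat3 (-0.31), Rgs13 (-0.19), Rgs21 (-0.50) and Rgs2 (-0.44), and those above were Gng13 (0.25) and Gnb3 (0.12, but -0.0093 when kept cells were thinned before gating and -0.0068 as a mean over cells). V2, which held fewer irradiated than control members, went the other way for some of them. Plcb2 was at 5.75 UMIs per 10000 in its control cells and 8.89 in its irradiated cells, against 3.84 and 2.86 in members outside V2, and Gnat3 and Rgs21 were likewise higher in its irradiated cells. Gnb3 was higher in irradiated than in control cells both in V2 (27.4 in control and 52.0 in irradiated) and outside it (6.37 and 8.24). Among lipid mediators, 3 of 10 were above and none below, namely Alox5ap (0.33), Mgst3 (0.41) and Fabp5 (0.91, but -0.65 without V4 and V5). Among regulators, Pou2f3 (-0.31), Sox9 (-0.28), Spib (-0.40) and Nfatc1 (-0.52) were below and Hmx2 (0.53) above. Outside V2, Hmx2 was at 1.25 (1.10 to 1.42) and 1.54 (1.36 to 1.73), with overlapping ranges. Pou2f3 (2.16 and 1.85) and Sox9 (8.24 and 6.33) were lower in irradiated members there too. Il25 was lower in irradiated members, with a log2 ratio of -0.79 (-1.06 to -0.53), but the thinned shares of members with an Il25 UMI, 47.5% (39.6 to 55.5%) and 38.1% (30.6 to 46.1%), overlapped in their intervals.

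Immediate early and heat shock genes were mostly lower in irradiated members. Of 17 genes that could be compared, all 17 had a log2 ratio below 0, where 52.4% of all genes did, 14 had a counting range wholly below 0, and Fosb and Hspa1b were past 2-fold. The median of the list was -0.51 in members and -0.88 in the other kept cells of the same libraries, so the difference was not confined to members. Fos, a subunit of the factor AP-1, was at 16.8 UMIs per 10000 in control members and 9.34 in irradiated members (-0.85), and at 9.69 and 3.57 in the other cells (-1.44). Fosb was at 3.24 and 1.25 in members (-1.37) and at 2.52 and 0.88 in the other cells (-1.51). Hspa1b, an inducible heat shock protein gene with a near-identical neighbour copy that makes its counts uncertain, was at 3.42 and 1.67 in members (-1.03, and -0.92 with under 10% mitochondrial UMIs per cell), and Ier2 (-0.10) and Hspa8 (-0.03) hardly differed. Thinned shares of members with a Fosb UMI were 46.9% (39.0 to 54.9%) in the control and 19.4% (13.6 to 26.4%) in the irradiated library. The other kept cells moved in the same direction, and library and condition cannot be told apart here.

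MHC class II genes were somewhat higher in irradiated members, but this rested on the cells of V4 and V5. The median log2 ratio of 10 genes was 0.34, against -0.06 in the other kept cells, with 8 genes above 0, where 47.6% of all genes were, and 6 with a counting range above 0. Without V4 and V5 the median was -0.33, and among members with at least 3 of the 4 tuft genes that the gate did not use it was -0.07. Aire was at 0.49 and 1.43 UMIs per 10000 in members (1.54), with a UMI in 16.2% and 19.4% of cells, and its log2 ratio was 0.18 without V4 and V5. Cd74 turned from 0.39 to -0.77 in the same way. V2 also held MHC class II transcripts, with Cd74 at 28.9 UMIs per 10000 against 3.74 in V0, 2.62 in V1 and 2.68 in V3. Since V2 held 39 control and 15 irradiated members, the ratios without V4 and V5 are not read as a difference between like cells. Within V2, Cd74 was at 29.9 in control and 26.0 in irradiated cells.

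Other stress lists showed smaller differences. Of 20 p53 target genes 15 could be compared, none was past 2-fold, and the median log2 ratio was 0.08 in members and 0.04 in the other cells. Cdkn1a, the p53-induced cell cycle inhibitor, had a log2 ratio of 0.10 in members and 0.53 in the other cells, Bax, a death effector, 0.46 and 0.41, and Trp53inp1, a p53-induced nuclear protein gene, -0.72 and 0.21. Plk2, a kinase gene on the same list, was at 8.51 and 6.46 UMIs per 10000 in members against 0.13 and 0.12 elsewhere. Of 20 interferon response genes 17 could be compared, 1 (Gbp2) was past 2-fold higher, and the median was 0.19 in members and -0.01 in the other cells. The 2 cell cycle genes that could be compared had a median of -0.27.

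**Figure D4:**
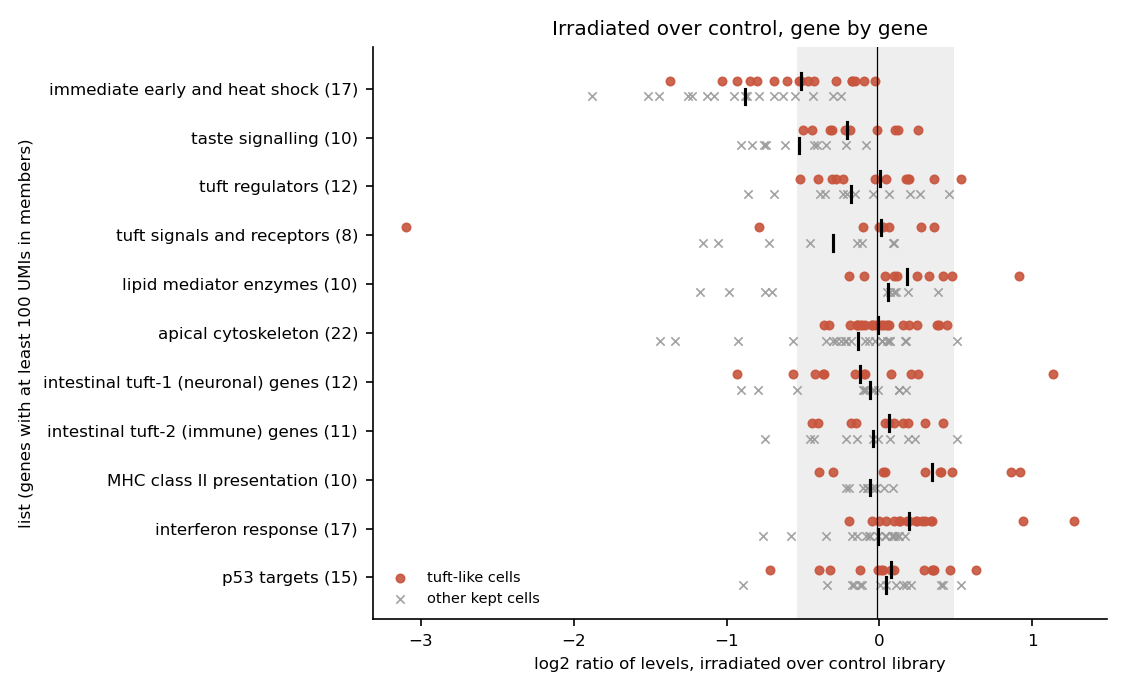
Log2 ratio of irradiated over control members for each gene of each list with at least 100 UMIs, in members (dots) and other kept cells (crosses), with list medians as bars and the middle 90% of all 6487 genes shaded. All 17 immediate early and heat shock genes lie below 0, and most tuft genes lie within the span.

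Many of the genes past 2-fold owed their UMIs to a few cells. Of the 123 such genes (1.9% of those compared), 41 had at least 50% of the UMIs of the higher library in 1 member, and 82 were found in under 25% of the members of each library. Fgb, a fibrinogen chain, had no UMI in control and 193 in irradiated members, 84.5% of them in 1 cell, and Zg16, a secreted intestinal lectin, had 119 in control and none in irradiated members, 99.2% of them in 1 cell. Single mTECs are known to produce such ectopic antigens. Reg3g, an antimicrobial lectin of mucosa, was at 1.18 and 3.76 UMIs per 10000 (1.68), with 62.2% of the irradiated UMIs in 1 member. Its ratio was -2.93 with the gate at 10 and -0.36 with a gate on Pou2f3, Lrmp, Rgs13 and Alox5. H2-M2, a class I-like gene, was at 3.99 and 1.03 (-1.95), with 46.7% of the control UMIs in 1 member, and was -0.91 with the gate at 10 and -4.88 without V4 and V5.

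Among genes found in at least 25% of the members of a library, 11 of 6189 were past 2-fold higher (0.178%) and 30 past 2-fold lower (0.485%). The split of these counts is not read as a difference, since control members were deeper and 485 genes passed only through the control library against 51 only through the irradiated library. Of the 11 genes, 7 were found in at least 25% of members of both libraries, and of the 30, 9 were. Cbln4, a secreted synaptic organiser of the cerebellin family (ENSMUSG00000067578, chromosome 2, 172036233 to 172043466), was the clearest of those higher. It was at 0.62 UMIs per 10000 in control members and 2.04 in irradiated members, a log2 ratio of 1.71 (1.34 to 2.09), and at 0.01 and 0.01 in the other kept cells, with a ratio of -0.56. No member held more than 8.61% of its UMIs in either library. After thinning, 16.9% of control members (11.4 to 23.6%) and 41.9% of irradiated members (34.1 to 49.9%) had a Cbln4 UMI. Cells of V2 had 0.05 per 10000 in each library, and among the other members the levels were 0.80 and 2.24. Nrgn was at 7.37 and 10.0 (0.44), with thinned shares of 58.8% and 71.2% whose intervals overlap. Outside V2 it was at 9.45 (9.01 to 9.90) and 10.998 (10.5 to 11.5). Without thinning it was found there in 81.8% and 82.8% of members, which is not to be set against the thinned shares.

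Wfdc18 stayed under 2-fold, at 23.4 UMIs per 10000 in control members and 38.7 in irradiated members (0.73, range 0.66 to 0.80), and at 14.4 and 15.6 in the other cells. Besides Cbln4, genes past 2-fold higher included Folr1, a folate receptor (1.67), the cTEC-associated genes Tbata (1.39), Ccl25 (1.15) and Ctsl (1.03), Thrsp (1.85, with 52.0% of irradiated UMIs in 1 member) and the bicarbonate transporter gene Slc4a4 (1.37). Of these, Folr1 and Slc4a4 reached 25% of members only in the irradiated library. Without V4 and V5, Folr1 was at 1.60 and Slc4a4 at 1.19, which was 0.60 when kept cells were thinned before gating, but Tbata at 0.41, Ccl25 at 0.33, Ctsl at 0.43 and Thrsp at 0.15. V4 held 1531 of the 1932 Ctsl UMIs of members. In the other kept cells Tbata (0.49), Ccl25 (0.32) and Ctsl (0.44) were also higher. All 4 genes of the cTEC list that could be compared had a ratio above 0 in members, where 47.6% of all genes did, and its sum was 4.95 and 10.4 in members and 45.3 and 62.5 in the other cells. Psmb11 and Prss16 of this list were capped by the rule, so its sum is a description. All 9 genes of that list had a UMI in members of each library, and what cells or free RNA of other types gave to these values was not tested. Among those lower were Itch, a ubiquitin ligase (-1.42, against 0.04 in the other cells), Vps41, an endosomal tethering subunit (-1.04, against -0.07), Car2, a carbonic anhydrase (-1.23, against -0.91), and Klf2, a zinc finger factor (-1.09, against -1.39), which reached 25% of members only in the control library. Each was under 2-fold in at least 1 alternative, with Itch at -0.99 when kept cells were thinned before gating, Vps41 at -0.94 with the gate on the other 4 tuft genes, Car2 at -0.70 without V4 and V5 and Klf2 at -0.64 with members thinned. Thinned shares in control and irradiated members were 31.9% and 25.6% for Itch, 29.4% and 20.6% for Vps41 and 21.25% and 15% for Klf2. For each of these genes the intervals of the shares overlap. Chrna10, in under 25% of members, gave 119 UMIs in control and 11 in irradiated members (-3.10, range -4.30 to -2.01). The ratio was -1.78 with the gate at 10 and -1.504 with the gate on the other 4 tuft genes. Its thinned shares were 10.0% (5.82 to 15.7%) and 0.625% (0.0158 to 3.43%).

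**Figure D5:**
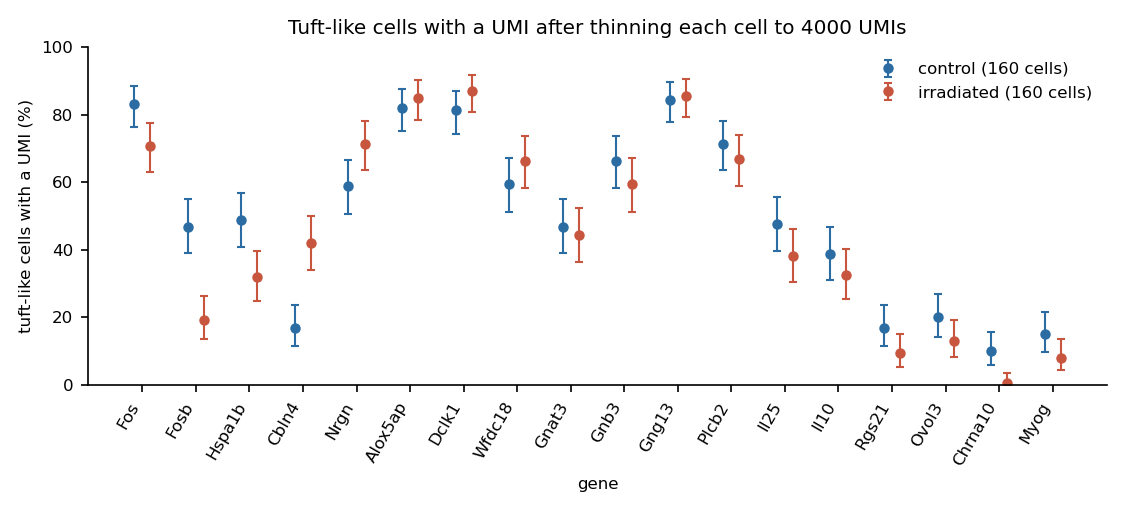
Share of members with a UMI of each gene after thinning every cell to 4000 UMIs, with 95% Clopper-Pearson intervals, for 160 control and 160 irradiated members. Cbln4 (16.9% and 41.9%) and Fosb (46.9% and 19.4%) have intervals that do not overlap, and Gnat3 (46.9% and 44.4%) and Gng13 (84.4% and 85.6%) nearly coincide.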

How the data were processed

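The authors aligned reads to mm10 with Cell Ranger (5.1 per the labels, 5.0.1 per the file headers) and deposited unnormalized UMI counts of each gene in each barcode. The chemistry is version 2 in the labels and version 3 in the study's methods. Barcodes were kept with under 15% mitochondrial UMIs and more than 2000 but fewer than 7500 detected genes, where a gene entered if at least 5 barcodes held it. Levels are summed UMIs of a group per 10000 summed UMIs, and ranges of ratios combine opposite ends of exact Poisson 95% intervals. Clusters used scanpy 1.11.5 (20 components, 15 neighbours, resolution 0.5). Doublets were not called or removed beyond the upper limit of detected genes. Named genes were those of 12 lists, the Tas2r family and 18 marker lists, the 25 with the highest fold over other cells, the 12 highest and 12 lowest between libraries, and Wfdc18, Reg3g and Aire. Folds over other cells were ranked among genes that were found in at least 25% of members, without a minimum of UMIs. The members, lists and choices were set with earlier results of these data known. Genes named beyond this rule, such as Itch and Folr1, were chosen after their values were seen, as were the gene panels of clusters and thinned shares. Some listed genes are not reported here. Coordinates are from GENCODE on GRCm38. The computation was tested on simulated counts. Alternatives changed the filter, the gate, the thinning, the minimum of UMIs, the denominator and the summary over cells.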

Additional observations from a re-analysis of the deposited data

How the results depend on the processing

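The log2 ratio of shares (-0.73 to -0.62) and the median of the immediate early and heat shock list (-0.64 to -0.36) kept their direction under every alternative run. Alternatives on which members count by tuft genes or clusters, and on genes found in 25% of members, were added after seeing the data. The 67 genes past 2-fold higher became 19 with the gate at 10, 40 with a gate on Pou2f3, Lrmp, Rgs13 and Alox5, 31 with at least 1 UMI each of Avil and Trpm5, 12 when kept cells were thinned before gating, 157 and 14 with minimums of 50 and 300 UMIs, 9 with members thinned, 25 with at least 3 of 4 other tuft genes, 10 without V4 and V5, and 11 for genes in 25% of members. The 56 genes past 2-fold lower became 17 when thinned before gating, 138 and 15 with those minimums, 15 with members thinned and 30 for genes in 25% of members. The MHC class II median of 0.34 was -0.050 with the gate at 10, -0.066 with at least 3 of 4 other tuft genes, -0.33 without V4 and V5, 0.057 with at least 1 UMI each, 0.48 when thinned before gating and 0.17 as a mean over cells. With the gate at 10, H2-Ab1 was -0.11, H2-Eb1 -0.050 and Reg3g -2.93, and Reg3g was -0.36 with the gate on the other 4 genes. With at least 3 of 4 other tuft genes, Cd74 was -0.087 and H2-Ab1 -0.10. Without V4 and V5, Cd74 was -0.77, H2-Aa -0.33, H2-Ab1 -0.40, H2-Eb1 -0.042, Fabp5 -0.65 and Hdc -1.36. Gnb3 was -0.0093 when thinned before gating and -0.0068 as a mean over cells. Cbln4 was between 1.64 and 1.84 and Fosb between -1.55 and -1.14 in all alternatives. The cause of these changes was not tested beyond which cells and genes entered. No paired analysis was possible because each condition had 1 library. The count of clusters was 4 at resolution 0.3 and 7 at 0.8, and a cluster of 54 members with the cells counted per library as in V2 was found at each.

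Conditions cannot be told apart from library, batch or pool. Genes under 100 UMIs in members were too shallow to be compared.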
